A study of Mus musculus with 7 samples.

Results

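The sites described here are 1817 CTCF-and-cohesin (CAC) sites of mouse liver that carried the cohesin subunit Stag2 but not its paralogue Stag1. They were taken from a list of 52436 CTCF sites as those on chromosomes 1 to 19 that had been assigned neither to anchors of topologically associating domains (TADs) nor to anchors of loops within TADs, that had a scored CTCF motif, a Stag2 flag and no Stag1 flag, and whose summit lay more than 1 kb from every start of a protein-coding transcript. Of the 26970 CAC sites outside anchors, 26257 were on these chromosomes and 20064 of those had a motif score. Among these, 3529 carried Stag2 alone, and 1712 of the 3529 were set aside because they lay within 1 kb of a start. The remaining 1817 sites (Stag2-only sites) make up 3.47% of the whole list. They were compared with 12191 sites that met the same conditions but carried both subunits (Stag1-and-Stag2 sites) and with 693 that lacked Stag2, of which 142 carried Stag1.

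The data came from livers of male CD-1 mice (Crl:CD1(ICR)) aged 8 weeks, with 4 chromatin immunoprecipitation (ChIP-seq) libraries for CTCF and 3 for Rad21, a subunit that every cohesin complex of dividing and resting somatic cells contains. The mice carried no genetic change and were given no treatment that the labels name, so the comparisons are between kinds of site within 1 tissue. Whole liver nuclei were used, so that hepatocytes and the other cells of the organ were measured together, and fewer cells with a bound site cannot be told apart from weaker binding in each cell. The deposited peak lists pool the libraries of each factor, and no spread between mice can be given for any value.

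Cohesin is a ring-shaped complex that holds DNA strands and extrudes chromatin loops until it meets CTCF, a zinc finger protein that binds a directional motif. Each ring contains either Stag1 or Stag2, which are alike in sequence and mutually exclusive. In many cells rings with Stag1 are known to stay longer on chromatin and to prevail at CTCF sites, whereas rings with Stag2 turn over faster and also occupy enhancers and promoters. Top2b, topoisomerase II beta, cuts and reseals both strands of DNA and is often found next to CTCF and cohesin.

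The flags for Stag1, Stag2 and Top2b are yes-or-no overlaps with peaks of public liver data that the study collected. Since they do not grade the signal, a Stag1 signal too weak to be called and no Stag1 at all cannot be told apart. The names of the flags rest on the order of columns in the study's own listing.

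Motifs at Stag2-only sites are shown first. Base use and words were compared over all sites of a group and not at like binding strength. A 19-base motif was learnt from strong TAD anchors and placed at each site on the motif strand that the authors had deposited. In the lines that follow capitals mark these 19 bases, and the first 3 lines give the most used base at each position in each group.
Stag2-only, 1817 sites: AGGCCAGAAGAGGGCACCA
Stag1-and-Stag2, 12191 sites: TGGCCAGCAGAGGGCACTA
Lacking Stag2, 693 sites: AGGCCAGAAGAGGGCGCCA
The Stag2-only motif differed most from that of sites with both subunits in having fewer T at position 12 (20.03 against 32.96%), fewer T at position 8 (19.6 against 31.2%), more G at position 7 (61.0 against 49.9%) and fewer T at position 1 (25.2 against 36.1%), counted from the 5′ end. At each of these positions the sites that lacked Stag2 were nearer to the Stag2-only sites, with 18.3, 20.1, 61.6 and 27.3%.

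One form of the motif was frequent at Stag2-only sites. The 12 bases CCAGAAGAGGGC at positions 4 to 15 were the most frequent core over all 3 groups, and they were present at 379 Stag2-only sites, or 20.9% (95% Wilson interval 19.1 to 22.8%). They were present at 10.9% (10.4 to 11.5%) of Stag1-and-Stag2 sites, a difference of 9.94 percentage points (95% Newcombe interval 8.05 to 11.9). Sites that lacked Stag2 had the core in 24.5% (21.5 to 27.9%). Here and below, intervals cover the counting of sites only, and sites are not replicates of an experiment.

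Full 19-base words with this core were repeated from site to site. The most frequent words of the Stag2-only sites were as follows, shown because each recurs at separate loci.
Word 1, at 35 Stag2-only sites: AGGCCAGAAGAGGGCATCA
Word 2, at 25 Stag2-only sites: AGGCCAGAAGAGGGCACCA
Word 3, at 17 Stag2-only sites: ACACCAGAAGAGGGCATCA
Word 4, at 12 Stag2-only sites: ATGCCAGAAGAGGGCATCA
Word 2 was found at 1.38% of Stag2-only sites and 0.484% of sites with both subunits, a difference of 0.892 points (0.428 to 1.55). Word 3 was found at 0.936 and 0.287% (difference 0.649, 0.280 to 1.21). For word 1 the shares were 1.93 and 1.35%, and the interval of the difference reached 0 (0.581 points, -0.000372 to 1.35). Of the 25 Stag2-only sites with word 2, 21 had at least 1000 copies of a sequence next to the motif, as counted next, and of the 17 with word 3, 15 did. Sites that lacked Stag2 had word 1 in 1.15% and word 2 in 1.299%, against 1.93 and 1.38% of Stag2-only sites. They had word 3 in 1.88% and word 4 in 1.01%, above the Stag2-only shares of 0.936 and 0.66%. For these words the differences from sites that lacked Stag2 were not tested. A further word was most frequent at sites that lacked Stag2, where 17 had it against 6 Stag2-only sites and 5 with both subunits.
Word 5, at 17 sites that lacked Stag2: ACTCCAGAAGAGGGCGCCA

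The bases next to these words were often repeated too. In rodents, short interspersed elements of the B2 family are known to have spread copies of a CTCF motif through the genome. No annotation of repeats was used here, so that no site was assigned to a family. As a measure of repetition, every 16-base sequence in the 50 bp on either side of the motif was counted over the mm9 genome on both strands, and the highest count was kept. The median of this copy number was 53 at Stag2-only sites, 28 at Stag1-and-Stag2 sites and 153 at sites that lacked Stag2. A copy number of 1000 or more was found at 472 of the 1817 Stag2-only sites, or 26.0% (24.0 to 28.0%), at 13.6% (13.03 to 14.25%) of the sites with both subunits, and at 35.6% (32.2 to 39.3%) of those that lacked Stag2. Stag2-only sites exceeded sites with both subunits by 12.4 points (10.3 to 14.5), in the same direction on 19 of 19 autosomes. Their difference from sites that lacked Stag2 was -9.67 points (-13.8 to -5.62). Of the 472, 54.4% had the core CCAGAAGAGGGC, and of the 379 Stag2-only sites with that core 67.8% were among the 472.

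**Figure D1:**
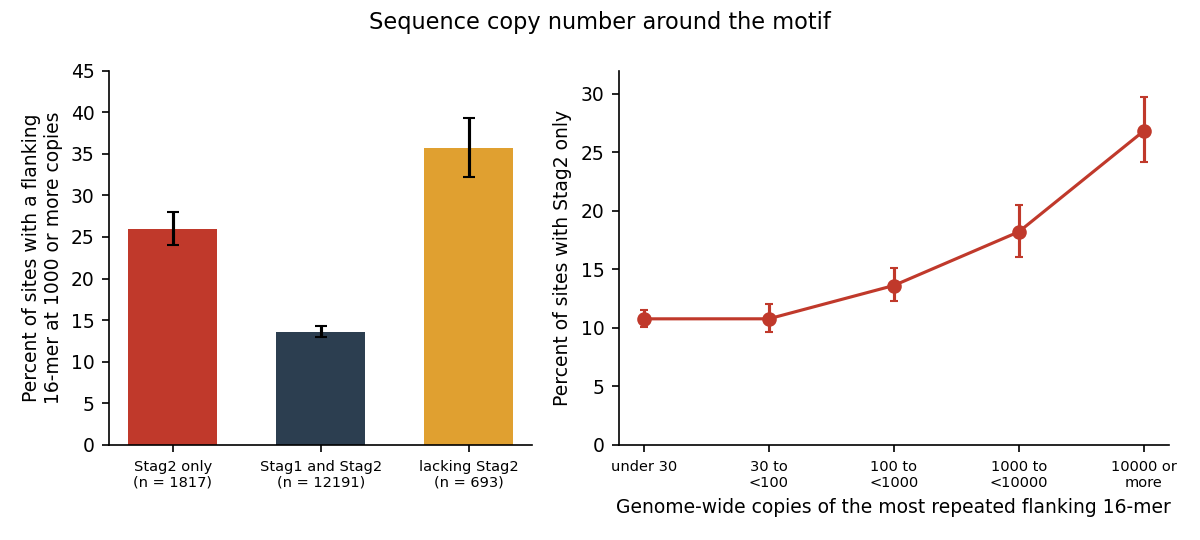
Left, the percent of sites in each group with a flanking 16-base sequence at 1000 or more copies (bars, 95% Wilson intervals), which was 26.0% at Stag2-only sites, 13.6% at Stag1-and-Stag2 sites and 35.6% at sites that lacked Stag2. Right, the percent of Stag2-only sites among all distal motif sites with Stag2, by bins of copy number, which was 10.8% under 30 copies and 26.8% at 10000 or more.

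Seen the other way, the share of Stag2-only sites among all 14008 distal motif sites with Stag2 was 12.97%. This share was 10.8% (10.1 to 11.5%) where the copy number was under 30 and also 10.8% (9.65 to 12.0%) from 30 to 99 copies. It was 13.6% from 100 to under 1000 copies, 18.2% from 1000 to under 10000 copies and 26.8% (24.1 to 29.7%) at 10000 copies or more, so that the last 2 bins stood apart from the first 2 beyond their intervals. Sites at repeated sequence had lower median scores in both groups, though the CTCF medians of Stag2-only sites were close. Among Stag2-only sites with 1000 or more copies the median Rad21 score was 87 and the median CTCF score 468, against 102 and 475 at the other Stag2-only sites. At sites with both subunits the values were 214 and 899 at 1000 or more copies, and 314 and 1232.5 below. Reads with several positions in the genome were not kept by the authors, and the part that this plays in the flags and scores at repeated sequence was not tested. Within deciles of the Rad21 score, cut over both groups together, the share with 1000 or more copies was higher at Stag2-only sites in 6 of the 7 deciles that held at least 20 of them, by up to 10.8 points, and in the other the difference was -2.13 points. Within deciles of the CTCF score it was higher in 10 of 10, by 3.98 to 15.3 points.

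Cohesin was weaker at Stag2-only sites. Peak scores are 10 times the negative log10 of the q-value, so that a higher score marks a more certain pile of fragments. The Rad21 score at Stag2-only sites had a median of 99, quartiles of 66 and 162 and a highest value of 2941, whereas at sites with both subunits the median was 294 with quartiles of 148 and 655. A Stag2-only site exceeded a site with both subunits with a probability of 0.185, where 0.5 means no difference. The distributions lay 0.485 apart by the 2-sided Kolmogorov-Smirnov test (D, with p below 1e-300, the lowest value kept; n = 1817 and n = 12191 sites), and the direction was the same on 19 of 19 autosomes. In fragments at the Rad21 summit, a count recovered from the deposited fold and p-value, the medians were 33 and 60. Only 5.89% (4.90 to 7.07%) of Stag2-only sites had a Rad21 score above 300, against 49.2% (48.3 to 50.1%).

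CTCF was weaker too. The CTCF score had a median of 472 and quartiles of 258 and 966 at Stag2-only sites, and of 1168 with quartiles of 519.5 and 2302.5 at sites with both subunits. The probability that a Stag2-only site was the higher of a pair was 0.290 (D = 0.320, adjusted p = 2.36e-143, n = 1817 and n = 12191; lower on 19 of 19 autosomes). Median fragments at the CTCF summit were 84 and 152. Adjusted p-values are by the Benjamini-Hochberg method over 11 such tests. These tests treat each site as 1 observation and say nothing of the variation between mice.

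**Figure D2:**
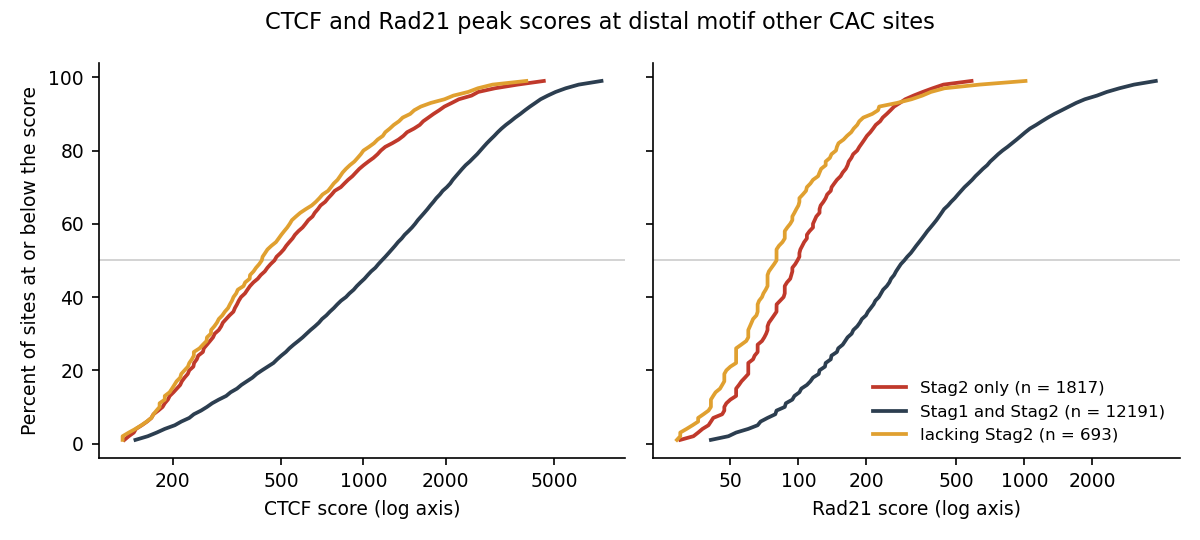
Percent of sites at or below each CTCF score (left) and Rad21 score (right), on log axes, for the 3 groups; the grey line marks the median. Stag2-only sites lie left of Stag1-and-Stag2 sites for both factors (medians 472 against 1168 for CTCF and 99 against 294 for Rad21) and near those that lacked Stag2 (424 and 80).

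The difference in Rad21 remained among sites of like CTCF score. Within deciles of the CTCF score, Stag2-only sites had the lower Rad21 score in 10 of 10, and the difference was greater in the highest decile than in the lowest. In the lowest decile the median Rad21 score was 83.5 at Stag2-only sites and 124 at sites with both subunits (probability 0.334), and in the highest it was 224 and 1291 (0.0706). Conversely, within deciles of the Rad21 score the CTCF score at Stag2-only sites was only slightly lower, with probabilities between 0.416 and 0.487 in the 7 deciles with at least 20 Stag2-only sites. Averaged over deciles and weighted by Stag2-only sites, the probability for Rad21 at like CTCF was 0.258 and that for CTCF at like Rad21 was 0.459. The ratio of the Rad21 to the CTCF score had a median of 0.206 at Stag2-only sites and 0.313 at sites with both subunits.

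The share of sites with Stag2 alone fell from decile to decile along the Rad21 score. In the lowest decile of the distal motif sites with Stag2, at scores of 20 to 73, 591 of 1509 sites lacked Stag1, or 39.2% (36.7 to 41.7%). The share was 10.9% (9.32 to 12.6%) in the fifth decile at 192 to 252, and 0.286% (0.111 to 0.732%) in the highest decile, where 4 of 1400 sites had Stag2 alone. Along the CTCF score it fell from 28.8% (26.5 to 31.2%) to 2.93% (2.17 to 3.95%). When sites were divided by quartiles of both scores, 35.7% (33.5 to 37.9%) of sites in the lowest quartile of both had Stag2 alone. Sites in the highest CTCF quartile and the lowest Rad21 quartile still had 27.1% (20.7 to 34.6%, 42 of 155 sites), while those in the lowest CTCF quartile and the highest Rad21 quartile had 8.16% (3.22 to 19.2%, 4 of 49 sites). In the highest quartile of both it was 0.273%, 6 of 2198 sites.

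**Figure D3:**
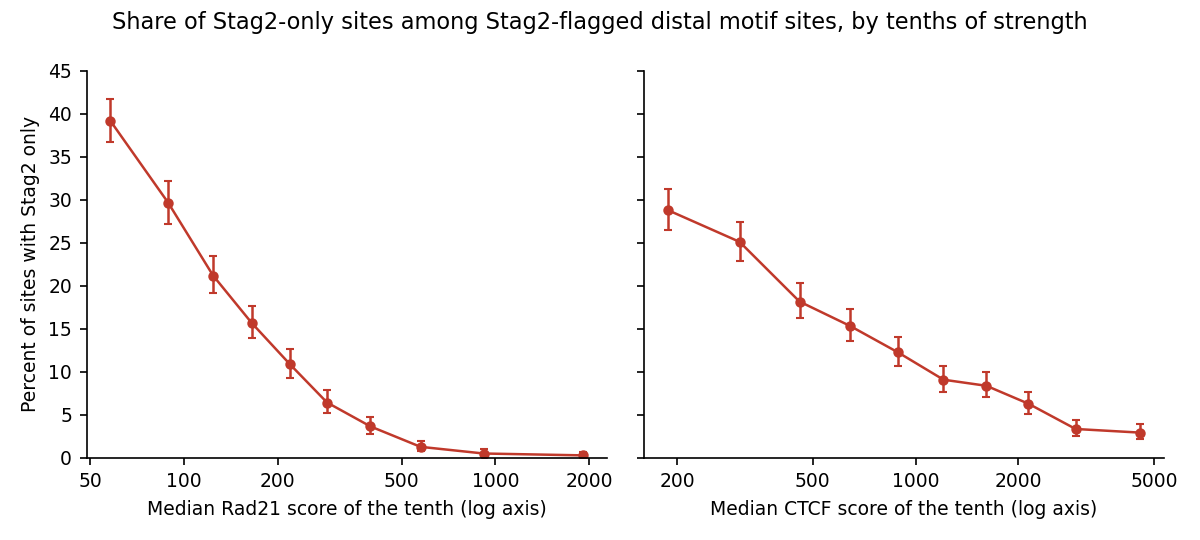
Percent of Stag2-only sites among all distal motif sites with Stag2, by deciles of the Rad21 score (left) and the CTCF score (right), plotted at the median score of each decile on a log axis with 95% Wilson intervals. The share falls from 39.2 to 0.286% along Rad21 and from 28.8 to 2.93% along CTCF.

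Against sites that lacked Stag2, the Stag2-only sites had a higher median Rad21 score, and their CTCF scores were close. The median Rad21 score was 99 against 80 (probability 0.591, D = 0.155, adjusted p = 7.22e-11, n = 1817 and n = 693; higher on 17 of 19 autosomes). This did not extend to the strongest sites, since 6.64% of sites that lacked Stag2 had a Rad21 score above 300 against 5.89% (difference -0.749 points, -3.07 to 1.26), and in the highest CTCF decile the medians were 166.5 and 157.5. The median CTCF score was 472 against 424, and this difference did not pass the test (probability 0.528, D = 0.0562, adjusted p = 0.0804, n = 1817 and n = 693; higher on 13 of 19). It did pass among sites with a CTCF score of at least 300 (probability 0.531). Over Rad21 deciles the mean probability was 0.4998, near no difference, and Stag2-only sites had the higher CTCF score in 6 of 10. Within Stag2-only sites the scores of both factors were only loosely related, with a Spearman's rho of 0.261 across the 1817 sites, against 0.647 across the 12191 sites with both subunits and 0.345 across the 693 without Stag2. These correlations describe sites of the same pooled libraries and have no p-value.

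Top2b separated the 3 groups further. The Top2b flag was present at 399 Stag2-only sites, or 22.0% (20.1 to 23.9%), at 53.8% (52.9 to 54.7%) of sites with both subunits and at 6.49% (4.89 to 8.58%) of sites that lacked Stag2. The difference from sites with both subunits was -31.8 points (-33.9 to -29.7), with the same direction on 19 of 19 autosomes, and that from sites without Stag2 was 15.5 points (12.7 to 18), on 18 of 19. The first difference was smaller among sites of like Rad21 score. Within Rad21 deciles it ranged from -25.3 to -2.50 points in the 7 deciles with at least 20 Stag2-only sites, and its mean over 10 deciles weighted by Stag2-only sites was -7.64 points. Within CTCF deciles it ranged from -58.1 to -10.5 points. In the highest CTCF decile 31.7% (19.6 to 47.0%) of 41 Stag2-only sites carried Top2b, compared with 89.8% (88.1 to 91.3%) of 1359 sites with both subunits.

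**Figure D4:**
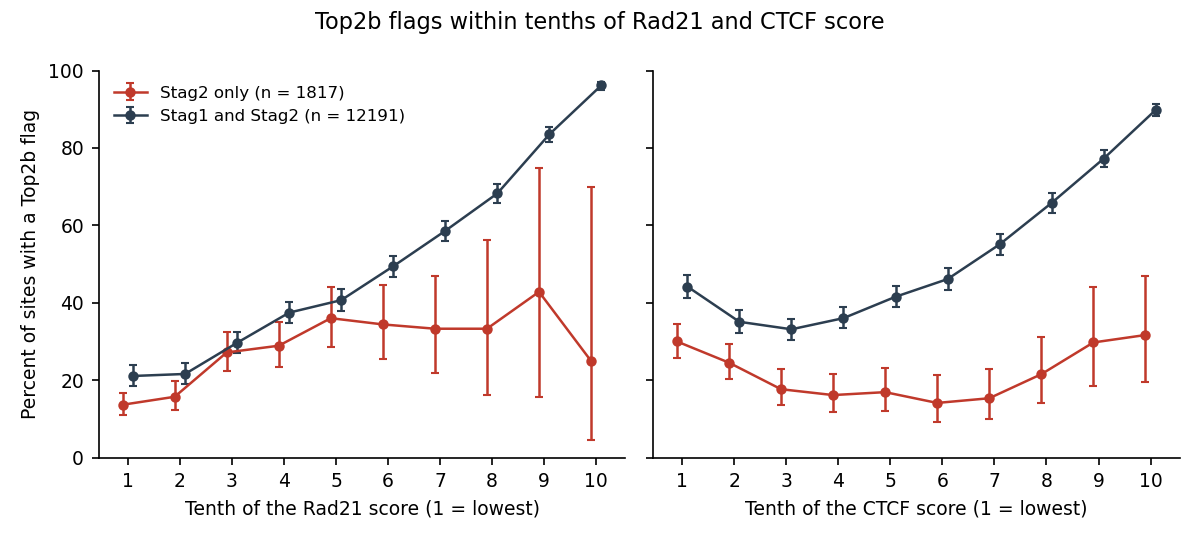
Percent of sites with the Top2b flag at Stag2-only and Stag1-and-Stag2 sites, within deciles of the Rad21 score (left) and the CTCF score (right) cut over both groups together, with 95% Wilson intervals. In the lowest Rad21 decile the shares were 13.7 and 21.1%, and Stag2-only sites rose no higher than 36.1% in any decile with at least 20 of them.

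Among the Stag2-only sites, those with Top2b differed from the rest in motif, CTCF and Rad21 scores and in GC content. The 399 sites with the flag had weaker motifs than the 1418 without it, with median motif scores of 11.49 and 16.02 (D = 0.404, adjusted p = 1.41e-45, n = 399 and n = 1418). They also had lower CTCF scores, with medians of 354 and 499 (D = 0.154, adjusted p = 8.67e-07, n = 399 and n = 1418). Their Rad21 scores were higher, at 125 against 93 (D = 0.239, adjusted p = 6.16e-16, n = 399 and n = 1418). GC content within 100 bp of the summit was 54.2 against 48.8% (D = 0.304, adjusted p = 1.44e-25, n = 399 and n = 1418). At sites with both subunits the CTCF score went the other way, with a median of 1759 at the 6555 sites with Top2b and 774 at the 5636 without, while the motif scores were 15.8 and 16.2. Rad21 scores and GC content were higher with Top2b there as well, at 508 against 182 and 49.8 against 46.3%. Adjustment here was over 5 measures of each group, the fifth being distance to a start, which was used in choosing the sites and is not reported as a test, and the split by Top2b was chosen after the group shares were known.

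Motif scores differed little between the groups. The deposited motif score, a log-odds score of the best CTCF motif, had a median of 15.2 at Stag2-only sites, 16.02 at sites with both subunits and 15.7 at sites that lacked Stag2. Stag2-only sites were below sites with both subunits (probability 0.444, D = 0.0862, adjusted p = 1.36e-10, n = 1817 and n = 12191), but within deciles of the CTCF score the direction turned, with Stag2-only sites higher in 7 of 10 and a mean probability of 0.527. They were also below the sites that lacked Stag2 (probability 0.465, adjusted p = 0.00734, n = 1817 and n = 693), a difference that did not pass the test among sites with a CTCF score of at least 300 (0.475) or on even autosomes (0.463). The motif lay on the + strand at 51.7% (49.4 to 54.0%) of Stag2-only sites.

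The motif of Stag2-only sites more often held a CpG, the dinucleotide at which mammalian DNA is methylated and which lies within the part of the motif that CTCF reads. A CpG was found within the 19 bases at 40.8% (38.6 to 43.1%) of Stag2-only sites, 34.2% (33.3 to 35.0%) of sites with both subunits and 42.7% (39.1 to 46.4%) of those that lacked Stag2. The difference from sites with both subunits was 6.67 points (4.28 to 9.10; 16 of 19 autosomes), and it was larger at like strength, with a mean over CTCF deciles of 13.8 points, or 11.7 points weighted by Stag2-only sites. The difference from sites that lacked Stag2 was -1.88 points, with an interval that included 0 (-6.21 to 2.41). The GC content within 100 bp of the summit was also higher than at sites with both subunits, with medians of 49.8 and 48.3% (probability 0.574, D = 0.113, adjusted p = 8.58e-18, n = 1817 and n = 12191). The GC medians differed more among sites with under 1000 copies (51.7 and 48.8%) and were 45.3% in both groups at 1000 or more copies.

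Cohesin lay less regularly beside CTCF at Stag2-only sites than at sites with both subunits. CTCF halts cohesin on the 3′ side of its motif, and the position of the Rad21 summit relative to that of CTCF was therefore read along the motif strand. Its median was 11 bp at Stag2-only sites, with quartiles of -24 and 50 bp, and 17 bp with quartiles of -6 and 40 bp at sites with both subunits (D = 0.129, adjusted p = 7.25e-23, n = 1817 and n = 12191). The Rad21 summit was on the 3′ side at 58.1% (55.8 to 60.4%) of Stag2-only sites and 69.0% (68.2 to 69.8%) of sites with both subunits. It lay within 50 bp of the CTCF summit at 60.3% (58.1 to 62.5%) and 77.6% (76.8 to 78.3%), and more than 100 bp away at 17.8% (16.1 to 19.7%) and 5.58% (5.18 to 6%). Sites that lacked Stag2 were close to the Stag2-only sites, with quartiles of -20 and 47 bp, 60.3% on the 3′ side and 15.9% more than 100 bp away. The intervals of the differences from them included 0 for the 3′ side (-2.20 points, -6.44 to 2.12) and for more than 100 bp (1.96 points, -1.41 to 5.08), and for within 50 bp the difference was -4.47 points (-8.61 to -0.215). The distance between the quartiles was wider at Stag2-only sites in 10 of 10 CTCF deciles, and in 6 of the 7 Rad21 deciles with at least 20 of them. In the lowest Rad21 decile the quartiles were 91.5 bp apart at Stag2-only sites and 70.75 bp at sites with both subunits, while in the fifth they were 52.5 and 50 bp apart.

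**Figure D5:**
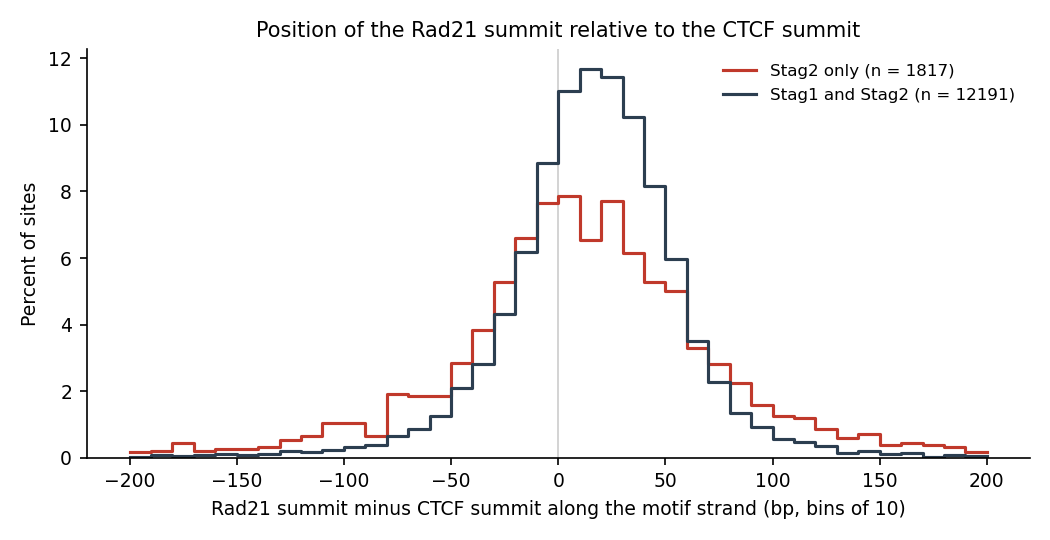
Position of the Rad21 summit relative to that of CTCF along the motif strand, in bins of 10 bp, as a percent of the 1817 Stag2-only and 12191 Stag1-and-Stag2 sites; positive values are 3′ of the CTCF summit. The Stag2-only distribution is lower at its peak and wider, with quartiles of -24 and 50 bp against -6 and 40 bp.

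Stag2-only sites were more often in genes than sites with both subunits. Distance to a start was used in choosing the sites and is given as a description, with medians of 14958 bp at Stag2-only sites, 20816 bp at sites with both subunits and 18502 bp at sites that lacked Stag2. Before the limit of 1 kb was applied, 48.5% of motif sites with Stag2 alone were within it, against 22.3% of those with both subunits. By annotation, 931 Stag2-only summits (51.2%) lay in introns of protein-coding genes, 66 in coding exons, 45 in exons of untranslated regions, 59 in genes of other types and 716 (39.4%) in no gene. The intron share was 5.83 points above that of sites with both subunits (3.36 to 8.28, 14 of 19 autosomes). For the share with no gene the difference was -8.40 points (-10.8 to -5.97). Against sites that lacked Stag2, the intron difference was 4.05 points, with an interval that included 0 (-0.322 to 8.40). The difference in the share with no gene was -5.76 points there (-10.1 to -1.45).

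The nearest TAD or intra-TAD anchor was a median of 37430 bp away, compared with 52435 bp for sites with both subunits (probability 0.431, D = 0.115, adjusted p = 1.92e-18, n = 1817 and n = 12191; nearer on 19 of 19 autosomes). At sites that lacked Stag2 the median was 38358 bp, and an anchor lay within 10 kb more often there, at 19.8 against 16.3% (difference -3.42 points, -6.95 to -0.115). The nearest other site of the whole list, of any class, was nearer too, at medians of 8339 bp for Stag2-only sites and 10099 bp for sites with both subunits. That nearest site was an anchor at 22.0 and 20.8%, a difference of 1.22 points with an interval that included 0 (-0.764 to 3.31). The nearest cohesin peak without CTCF, a kind of peak known from enhancers, was within 10 kb at 26.4% (24.4 to 28.5%) of Stag2-only sites, 19.4% (18.7 to 20.2%) of sites with both subunits and 20.6% (17.8 to 23.8%) of sites that lacked Stag2. After a Stag2-only site, the next distal motif site with Stag2 was also Stag2-only in 14.5% of 1813 cases, compared with 12.8% of 12176 cases after a site with both subunits, a difference of 1.75 points (0.0918 to 3.54). Taken by the gap between neighbours, under 10 kb, 10 to 100 kb or 100 kb and more, the differences were 1.93, 1.90 and 0.924 points, each with an interval that included 0. By chromosome, the Stag2-only share of the distal motif sites with Stag2 lay between 7.92% (5.93 to 10.5%) on chromosome 13 and 15.6% (13.5 to 18.04%) on chromosome 4.

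The strongest Stag2-only sites by CTCF are given with their motifs and 5 bp on either side in lower case, on the motif strand, because high CTCF scores occurred here without a Stag1 flag and with unlike motifs. Positions are in mm9.
chr17:35693689-35694265, UTR exon of Cdsn: ctcccGTGCCTCTAGAGGGCTCACgtctc
chr15:102583559-102584121, no gene, nearest start Calcoco1: gtggaAAGCCACCAGGGGGCAGAAtcaag
chr1:37476200-37476726, UTR exon of 6330578E17Rik: tacacAGAGCACAAGGGTGCAGTAcctcc
chr4:151512531-151513068, intron of Espn: tcgctGGGCCGCCAGAGGGCGACAgcgtc
chr11:78267123-78267601, no gene, nearest start Slc46a1: cctgcTTGCCAGAAGAGGGCACCAgatct
Their CTCF scores were 12435, 8859, 8223, 8147 and 7249, with 1133, 823, 781, 1051 and 800 fragments at the summit. The Rad21 scores of the same 5 sites were 454, 324, 168, 263 and 661, and 4 of the 5 lay between the quartiles of sites with both subunits (148 and 655). Their motif scores ranged from 8.15 at the site in 6330578E17Rik to 21.3 at the site near Slc46a1, and 4 of the 5, all but the last, carried Top2b. The motif shown need not lie at the summit. At the site near Calcoco1 it spanned 102583988 to 102584006, whereas the CTCF summit was at 102583849. Cdsn encodes corneodesmosin of the skin barrier, Espn the actin-bundling protein espin, and Slc46a1 the proton-coupled folate transporter.

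The highest Rad21 scores marked sites of other kinds. The highest, 2941, was at chr8:112095695-112096135 in an intron of Txnl4b and within 10 kb of Hp, the gene of the haemoglobin scavenger haptoglobin, a major plasma protein from hepatocytes. Its Rad21 peak held 2033 fragments over a local background of 788, a fold of only 2.58, whereas its CTCF score was 455. The next was at chr4:140760381-140761003 (Rad21 score 1997, CTCF score 3257, Rad21 fold 14.1), with no gene at the summit and 6330545A04Rik nearest. At chr16:85172645-85173217, in an intron of App, the gene of the amyloid precursor protein, the scores were 1595 and 272. The CTCF summit lay 1130 bp from a start of App, and the Rad21 summit lay 1246 bp to the 3′ side of the CTCF summit. The closeness of the Rad21 summit to that start was not tested. There the Rad21 peak overlapped the CTCF peak and had its summit outside it. The fifth, at chr7:130355838-130356186 near Slc5a11, had scores of 907 and 1534 and summits 8 bp apart.

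The 3 sites with the lowest Rad21 relative to CTCF had strong CTCF. At chr4:127612597-127613057, in an intron of CK137956, the Rad21 score was 20 and the CTCF score 2421. At chr3:107373994-107374567 near Ubl4b they were 25 and 2548, and at chr5:115921133-115921539, in an intron of Pla2g1b, a secreted phospholipase gene, 73 and 4862. The 5 highest motif scores, 25.3 to 26.7, were at chr4:101336841-101337621, chr9:20548350-20548813, chr13:120152061-120152581, chr8:51377386-51377899 and chr3:20408135-20408519. The words of the first and the last are shown because they are alike in sequence and unlike in score.
chr4:101336841-101337621, nearest start Leprot: attagTGGCCACCAGGGGGCGCTCttcat
chr3:20408135-20408519, nearest start Agtr1b: gcatgTGGCCACCAGGGGGCAGTCgcgct
These near-equal motifs went with CTCF scores of 2387 and 305 and Rad21 scores of 167 and 60.

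Around the limit of 1 kb, the nearest sites just beyond it were 1014 bp from a start of Insr, the insulin receptor gene, 1019 bp from Dnajc22 and 1022 bp from Zfp710. Those just within it, which were left out, were 990 bp from Vps26b, 986 bp from Creb3l1 and 967 bp from Mnt.

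Genes of liver function were then searched for Stag2-only sites in the gene body or within 10 kb of it. Of 21418 autosomal protein-coding genes, 1511 had one, or 7.05%. Of the 23 genes for liver transcription factors and nuclear receptors 5 had one, among them Hnf4a and Foxa1, which set hepatocyte identity, Ppara, the receptor that switches on fatty acid oxidation, and Nr0b2, a repressor of bile acid synthesis. The site in a coding exon of Foxa1, chr12:58643166-58643709, was the strongest of these by CTCF, with a CTCF score of 4828 and a Rad21 score of 345. The Hnf4a site, in an intron at chr2:163366291-163366692, was weaker, at 301 and 155, and carried Top2b.

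Among 11 genes of the growth hormone pathway, which sets the sex differences of liver expression, 3 had a site. They were Stat5b, the signal transducer itself (550 for CTCF and 427 for Rad21, in an intron), Igfals, which encodes the carrier of circulating insulin-like growth factor (1088 and 473, in a UTR exon), and Cux2, a female-specific repressor in liver (237 and 276, in an intron). Of 24 metabolic genes 3 had one: Cps1, the first enzyme of the urea cycle (1028 and 88), Asl, argininosuccinate lyase of the same cycle (1445 and 174), and Pcx, pyruvate carboxylase (246 and 183). Of 16 cytochromes P450 there were 2, Cyp27a1, an enzyme of bile acid synthesis, and Cyp4f14, and of 23 plasma protein genes 1, Hp. Of 13 autosomal genes for CTCF and cohesin themselves 3 had one, including Stag1, in an intron of which lay chr9:100636990-100637424 (374 and 66). The others were Pds5a and Wapal, which regulate the release of cohesin. Of 19 genes marking other liver cell types 3 had one, namely Des, Lyve1 and Stab2. Many of the named genes also had sites with both subunits, with 7 at Cux2, 6 at Pcx, and 2 each at Hnf4a, Ppara and Stat5b. Cyp27a1, Cyp4f14, Foxa1, Asl, Wapal and Stab2 had 1 each, and the other genes named from these lists had 0. No list was tested, the lists are small, and their genes are often longer than the median protein-coding gene of 15.5 kb, with medians between 11.1 and 46.4 kb, so that the shares are not compared with 7.05%.

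The sites at Hp and Cyp27a1 had the same 29 bases around the motif, as did 4 further Stag2-only sites and 0 of the sites with both subunits. They are shown with the site near Ubl4b, among the 3 lowest in Rad21 relative to CTCF, and the site at Stat5b, both of which hold related words.
chr8:112095695-112096135, near Hp: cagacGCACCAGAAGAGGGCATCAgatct
chr1:74758509-74758931, near Cyp27a1: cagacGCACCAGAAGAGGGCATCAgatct
chr3:107373994-107374567, near Ubl4b: actgcAAGCCAGAAGAGGGCACCAgatct
chr11:100698616-100698991, intron of Stat5b: cacagAGGCCAGAAGATGGTGCTGggtcc
The highest copy number of a flanking 16-base sequence was 34265 at the Hp site, 54627 at the Cyp27a1 site, 7945 near Ubl4b and 722 at Stat5b. Despite identical motif bases, the Hp and Cyp27a1 sites had Rad21 scores of 2941 and 151 with CTCF scores of 455 and 434. Their Rad21 folds over local background were in the other order, at 2.58 and 3.87, with backgrounds of 788 and 13.7 fragments.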

How the data were processed

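CTCF was measured in 4 and Rad21 in 3 male liver libraries. By the published methods, the authors pooled reads by factor, aligned them to mm9 with Bowtie2, kept unique positions and called peaks with MACS2. The deposited score is 10 times the −log10 q-value, the deposited fold is a ratio to local background, and the deposited −log10 p column gives the Poisson p-value of the summit. The authors listed CTCF peaks found in at least 2 livers, classed them and added a motif score and the flags. Pooled lists give no depth per library. Fragments at each summit were recovered from fold and p-value, and came out whole (within 0.05) at 99.997% of Rad21 peaks.

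Positions were read against NCBIM37 (mm9) and GENCODE vM1 gene models. A Rad21 peak had to share at least 1 bp with the CTCF peak, and the strongest was used. Numbers were compared by the 2-sided Kolmogorov-Smirnov test over sites, as in the study, and shares by 95% Wilson and Newcombe intervals. The learnt motif came from 1500 TAD anchors on odd autosomes. On even autosomes 97.7% of sites matched it better on the deposited strand, and its score had a Spearman's rho of 0.937 with the deposited one over Stag2-only sites. Scripts ran on SciPy 1.17.1, pysam 0.24.0, NumPy 2.4.6, pandas 2.3.3 and Python 3.11.15, and were tested on simulated data.

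Named sites were the 5 highest by CTCF, Rad21 and motif score, the 3 on either side of 1 kb, the 3 highest and lowest by Rad21 to CTCF ratio, and the strongest at each listed gene; 2 of these are not reported here. Members, lists and tests were chosen with earlier results of these data known. The limit of 1000 copies, the form CCAGAAGAGGGC, the repeated words and the comparisons within Top2b subsets were chosen after the values were seen.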

Additional observations from a re-analysis of the deposited data

How the results depend on the processing

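No paired analysis was possible because the deposited lists pool the libraries of each factor, and no library could be left out for the same reason. Limits of 500 bp, 2 kb and 5 kb, or starts of all gene types, left the number of Stag2-only sites within 1.5 times 1817, and a motif score of at least 15 left 939. Against sites with both subunits, every alternative without deciles kept direction and side of the threshold. Means over 10 deciles gave these probabilities: CTCF score 0.411 (0.459 weighted by Stag2-only sites) by Rad21, Rad21 score 0.207 (0.258) by CTCF, summit offset 0.440 by CTCF, GC content 0.682 (0.614) by Rad21, motif score 0.480 weighted by Rad21. The motif score turned to 0.527 (0.521) by CTCF, and peak width, 0.436 over all sites, turned to 0.533 (0.540) by CTCF and 0.566 (0.546) by Rad21. The Top2b difference became -21.5 points (weighted, by CTCF), -21.6 by Rad21 and -7.64 weighted by Rad21, and the CpG difference 13.8 (11.7 weighted) by CTCF and 17.9 (11.1) by Rad21, where 1 decile with 7 Stag2-only sites gave 62.2. The upper 3 Rad21 deciles held 18, 7 and 4 Stag2-only sites, so unweighted means lean on few sites. Against sites that lacked Stag2, the CTCF difference passed the test at scores of at least 300 (0.531) and on even autosomes (0.555). By Rad21 deciles its mean was 0.4998, near no difference, with 6 of 10 deciles in the original direction. The motif difference no longer passed at scores of at least 300 (0.475) or on even autosomes (0.463). The cause was not tested.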

Other observations

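Among protein-coding genes of at most 100 kb, Speg (ENSMUSG00000026207.9), which encodes a kinase of striated muscle, had the most Stag2-only sites in its body or within 10 kb. It was picked after the values were seen. It had 4 such sites and 0 sites with both subunits. All 4 motifs were on the + strand. The sites were chr1:75367960-75368359, which also lies within 10 kb of Des, the desmin gene, chr1:75395239-75395723, chr1:75410285-75410811 and chr1:75422321-75422813. Their CTCF scores were 1156, 1848, 1416 and 3795, and their Rad21 scores 164, 124, 200 and 94. The site with the highest CTCF score had the lowest Rad21 score and was the only one of the 4 with over 1000 copies of a flanking 16-base sequence (2962). The first and second carried Top2b.

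On the X chromosome, which the choice of sites left out, 35 sites met all other conditions.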
